A study of Mus musculus with 4 samples.

Results

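Irx1, Irx2, Pou3f4 and Hhex are 4 homeobox transcription factors tied to the α- or δ-cell lineage of the pancreatic islet. They were taken by gene symbol from the count matrices of 3 single-cell libraries, as 4 of the 32227 genes listed there. No cut on a measured value was used, but earlier results of these data were known when the factors were chosen. Each symbol had 1 row, ENSMUSG00000060969 for Irx1, ENSMUSG00000001504 for Irx2, ENSMUSG00000056854 for Pou3f4 and ENSMUSG00000024986 for Hhex. All 4 had at least 1 unique molecular identifier (UMI, which marks 1 captured transcript) in each library.

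The libraries labelled mutant 1 and mutant 2 came from mice homozygous for a CRISPR-Cas9 insertion of 12 bases in an exon of Myt3, which disrupts an upstream open reading frame. The library labelled control 2 came from mice homozygous for the wild-type allele of the same crosses, so both genotypes go back to the same outcrossed founder. Each library pooled the islets of adult mice, 2 males and 2 females by the paper's methods. The sources disagree on diet and platform, with a high-fat diet and inDrop-Seq in the paper and a normal diet and PIPseq in the labels. A further control library, control 1, was not analysed here for expression. With 1 control library, no test between genotypes was possible. The batch entry of control 2 differs from that of the mutant libraries and is not a calendar date, so genotype and batch cannot be told apart.

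In islets, α cells make glucagon (Gcg), β cells insulin (Ins1, Ins2), δ cells somatostatin (Sst) and PP cells pancreatic polypeptide (Ppy). These cells arise from shared endocrine progenitors, and homeobox factors that bind DNA set which hormone program a cell takes. Irx1 and Irx2 belong to the Iroquois family, lie side by side on mouse chromosome 13 and are known as α-cell genes of the islet. Pou3f4, also called Brn4, is a POU-domain factor of the early α lineage that binds the glucagon promoter. Hhex is required for δ cells and is also made by endothelial cells in other tissues.

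The RefSeq promoter windows of 3 of the 4 factors are shown because these are the genes whose levels separate α or δ cells from β cells below. Each window runs from 250 bases before the start of the gene to 50 after it and is given 5′ to 3′ on the strand of the gene, from build GRCm38.p6, which differs from the GRCm39 build named for the counts. Capitals mark the homeodomain core TAAT or, on the other strand, ATTA. Irx2 lies at chr13:72628570-72628869 (plus strand), Pou3f4 at chrX:110814129-110814428 (plus strand) and Hhex at chr19:37434591-37434890 (plus strand).
Irx2: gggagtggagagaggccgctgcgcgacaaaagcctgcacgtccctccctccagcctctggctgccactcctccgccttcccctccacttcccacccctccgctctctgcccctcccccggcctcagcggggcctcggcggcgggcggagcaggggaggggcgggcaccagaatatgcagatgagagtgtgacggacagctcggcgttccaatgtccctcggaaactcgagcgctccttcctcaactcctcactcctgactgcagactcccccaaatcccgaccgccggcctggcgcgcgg
Pou3f4: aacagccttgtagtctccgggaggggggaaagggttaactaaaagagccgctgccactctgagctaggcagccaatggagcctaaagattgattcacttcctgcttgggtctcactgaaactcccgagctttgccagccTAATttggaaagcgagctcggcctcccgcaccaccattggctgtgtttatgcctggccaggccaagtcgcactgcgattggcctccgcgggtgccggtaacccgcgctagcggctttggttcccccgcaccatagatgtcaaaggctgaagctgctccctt
Hhex: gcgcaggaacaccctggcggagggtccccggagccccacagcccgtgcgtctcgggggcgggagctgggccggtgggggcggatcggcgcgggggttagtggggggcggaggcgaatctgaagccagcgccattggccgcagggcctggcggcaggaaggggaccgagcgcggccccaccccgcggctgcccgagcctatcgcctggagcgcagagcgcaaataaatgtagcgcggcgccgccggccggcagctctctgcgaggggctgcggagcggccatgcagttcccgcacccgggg
The core was found 1 time in the Pou3f4 window and 0 times in those of Irx2 and Hhex, while 58.0% of all 32851 windows of this length hold it. The windows differ in base composition, with 75.7% G and C in Hhex, 69.0% in Irx2 and 57.7% in Pou3f4, against a median of 52.7% over all windows. No binding was measured in these libraries. Irx1 has no entry in the table.

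After filters of at least 500 UMIs, at least 100 genes and at most 10% mitochondrial UMIs, 2940, 2040 and 2283 cells were kept in mutant 1, mutant 2 and control 2. Cells were classed by the share of their UMIs that a hormone took, and the 4 factors had no part in it. An α, δ or PP cell held at least 5% of its UMIs in Gcg, Sst or Ppy, with each of the others under that share divided by 3. A β cell held at least 20% in insulin and under 2% in each other hormone. This gave 312, 229 and 40 α cells, 25, 35 and 29 δ cells, 53, 35 and 21 PP cells and 2148, 1492 and 1995 β cells, in the order mutant 1, mutant 2 and control 2 that is used throughout. A β cell held 2878, 4615 and 16303 UMIs at the median, with control 2 the deepest. No barcode was shared between libraries.

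Most, but not all, of the markers followed the classes. Of the α markers, Slc38a5, an amino acid transporter, was higher in α than in β cells by 4.48 ± 0.37 on the log2 scale, Ttr by 2.72 ± 0.28 and Slc7a2 by 1.86 ± 0.18 (SE, 3 libraries, edgeR adjusted p = 7.99e-11, 9.10e-09 and 1.54e-09), whereas Gc, at 0.26 ± 0.30, did not pass (adjusted p = 0.541). Of the δ markers, Rbp4 was higher in δ than in β cells by 6.31 ± 0.27 and Spock3 by 4.85 ± 0.51 (edgeR adjusted p = 2.30e-16 and 2.24e-08), and Casr, at 0.26 ± 0.47, did not pass (adjusted p = 0.765). The PP marker Tspan8 was higher in PP than in β cells by 5.32 ± 0.24 (log2, edgeR adjusted p = 7.22e-16). These 2 markers also rose elsewhere against β cells, Tspan8 in δ cells by 3.59 ± 0.32 and Rbp4 in α cells by 3.76 ± 0.25 and PP cells by 2.71 ± 0.42. Tspan8 was still higher in PP than in δ cells by 1.73 ± 0.28. Rbp4 was lower in α and PP than in δ cells, by -2.55 ± 0.25 and -3.60 ± 0.32. The 6 α markers other than Gcg summed to 699, 801 and 2142 CPM (counts per 1000000 UMIs of the class) in β cells, highest in control 2. Ttr made up most of each sum, with 4297, 5279 and 68787 of the 6981205, 7544454 and 35163350 β-cell UMIs. The sums thus do not stand for each marker. Slc7a2, with 387, 531 and 1286 UMIs, was lowest per UMI in control 2, and Gc, with 147, 185 and 5130, was highest there. The part of these markers in the results below was not tested.

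Irx2 was an α-cell gene in every library. α cells held 59, 53 and 14 Irx2 UMIs, which is 93.7, 74.1 and 44.7 CPM, while β cells stood at 5.30, 5.70 and 0.768 CPM. The lowest α level, that of control 2, exceeded the highest β level, and the share of all genes that do so was not counted. Within a library the α level was 17.7, 13.0 and 58.3 times the β level, with 95% counting intervals of 11.5 to 27.4, 8.53 to 19.9 and 28.2 to 115. Across libraries Irx2 was higher in α than in β cells by 3.80 ± 0.37 on the log2 scale (SE, 3 libraries, edgeR quasi-likelihood test, adjusted p = 2.11e-09). Of the 4925 genes tested in this comparison, 18.6% were called higher in α cells.

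δ and PP cells held almost no Irx2. There were 0, 1 and 0 Irx2 UMIs in δ cells and 1, 1 and 0 in PP cells. The limit that a count of 0 allows, taken as 3 UMIs, was 84.4 CPM in δ cells of mutant 1, which is close to the α level, but 16.7 CPM in those of control 2 and 14.8 CPM in its PP cells. Irx2 was higher in α than in δ cells by 4.33 ± 0.98 (log2 fold change ± SE, edgeR adjusted p = 0.00290), in a comparison where 5.69% of the genes tested were called higher in α cells. It was higher in α than in PP cells by 3.96 ± 0.79 (log2 fold change ± SE, edgeR adjusted p = 0.00311), where 1.6% of genes were called higher and 1.14% lower. The α to PP call did not pass without mutant 1 (adjusted p = 0.10) or without mutant 2 (adjusted p = 0.0684), both by edgeR. Irx2 did not pass between δ and β, PP and β or PP and δ cells, with adjusted p of 0.863, 0.949 and 0.960 by edgeR.

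Irx1 had the same distribution over fewer transcripts. It had 24, 29 and 9 UMIs in α cells, or 38.1, 40.5 and 28.8 CPM, and 2.29, 1.72 and 0.114 CPM in β cells. The 3 α values lay within each other's counting intervals, and each was above every β value, again with no share over all genes counted. Irx1 had 0 UMIs in δ cells, PP cells and non-endocrine cells of all 3 libraries. Its α level was 1.86, 1.64 and 1.94 times the 3-UMI limit in PP cells of the 3 libraries. Such ratios leave out the counting error of the α level and are not lower bounds. In control 2 the PP limit of 14.8 CPM lay within the α counting interval of 13.2 to 54.6 CPM. In δ cells the limit lay above the α level in mutant 1 (84.4 CPM). The α level was 1.12 and 1.73 times the limit in mutant 2 and control 2. Both limits, 36.0 and 16.7 CPM, lay within the α counting intervals, 27.1 to 58.2 and 13.2 to 54.6 CPM. Summed over the libraries the α level was 3.73 times the limit for δ and 5.86 times that for PP cells. Without control 2 these ratios fell to 1.56 and 3.52. For δ cells the ratio was 3.24 without mutant 1 and 2.52 without mutant 2. Irx1 did not pass the filter on low counts, so it has no test in the main fit. In the fit without that filter, it was higher in α than in β cells by 4.31 ± 0.47 on the log2 scale (SE, edgeR adjusted p = 5.00e-18). That fit also placed α above δ cells (adjusted p = 0.00523) and above PP cells (adjusted p = 0.00152) by edgeR. With a hormone share of at least 10%, where Irx1 passed the filter, neither of these passed (edgeR adjusted p = 0.646 and 0.0538), while α against β cells did (adjusted p = 1.74e-07). At that share Irx1 passed the filter only through its α level, so the call is not independent of a high level there. The p-values of the fit without the filter rest in effect on a spread shared across genes. They do not measure how Irx1 itself varied among the libraries.

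Pou3f4 was rare. It had 8, 2 and 1 UMIs in α cells, which is 12.7, 2.79 and 3.20 CPM, and its counting intervals overlapped between the libraries. No Pou3f4 UMI was found in β cells of any library, where the 3-UMI limits are 0.430, 0.398 and 0.0853 CPM. In mutant 1, the library with most of the α UMIs, its α level was 29.6 times the β limit. This ratio leaves out the counting error of the α level. PP cells held 1, 1 and 0 UMIs, or 6.84 and 8.23 CPM in the mutant libraries, within the intervals of the α values. δ cells held 0, which was not informative at this depth since the summed limit of 10.04 CPM lies above the α level. Pou3f4 did not pass the filter. Without the filter its α to β difference passed by edgeR (adjusted p = 3.46e-05), and that between PP and β cells did not (adjusted p = 0.0718). Both p-values rest in effect on a spread shared across genes, not on that of Pou3f4 among the libraries.

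Hhex marked δ cells. These held 4, 15 and 24 Hhex UMIs, at 113, 180 and 133 CPM, against 2.86, 3.45 and 0.711 CPM in β cells and 4.77, 2.79 and 0 CPM in α cells. The groups did not overlap, and the share of all genes that separate in this way was not counted. The δ level was 39.3, 52.3 and 187 times the β level within the 3 libraries, with counting intervals of 9.76 to 117, 25.8 to 102 and 102 to 342. Hhex was higher in δ than in β cells by 5.42 ± 0.55 on the log2 scale (SE, edgeR adjusted p = 1.32e-08), where 8.81% of genes were called higher in δ cells. It was lower in α than in δ cells by a log2 change of -5.58 ± 0.74 (edgeR adjusted p = 3.32e-06, with 5.71% of genes called lower) and lower in PP than in δ cells by -5.83 ± 1.04 (log2, edgeR adjusted p = 0.000302, with 3.86% called lower and 3.57% higher). PP cells held 1, 0 and 0 UMIs. Between α and β cells the difference of -0.17 ± 0.89 did not pass (log2, edgeR adjusted p = 0.904).

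Thus 2 of the 4 factors, Irx2 and Hhex, entered the main fit. Each was called in every comparison with its own class and in none of the others. Both passed the filter on low counts only through the level in their own class. Entry to the fit was therefore tied to a high level there, and the calls with that class are not independent of it.

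**Figure D1:**
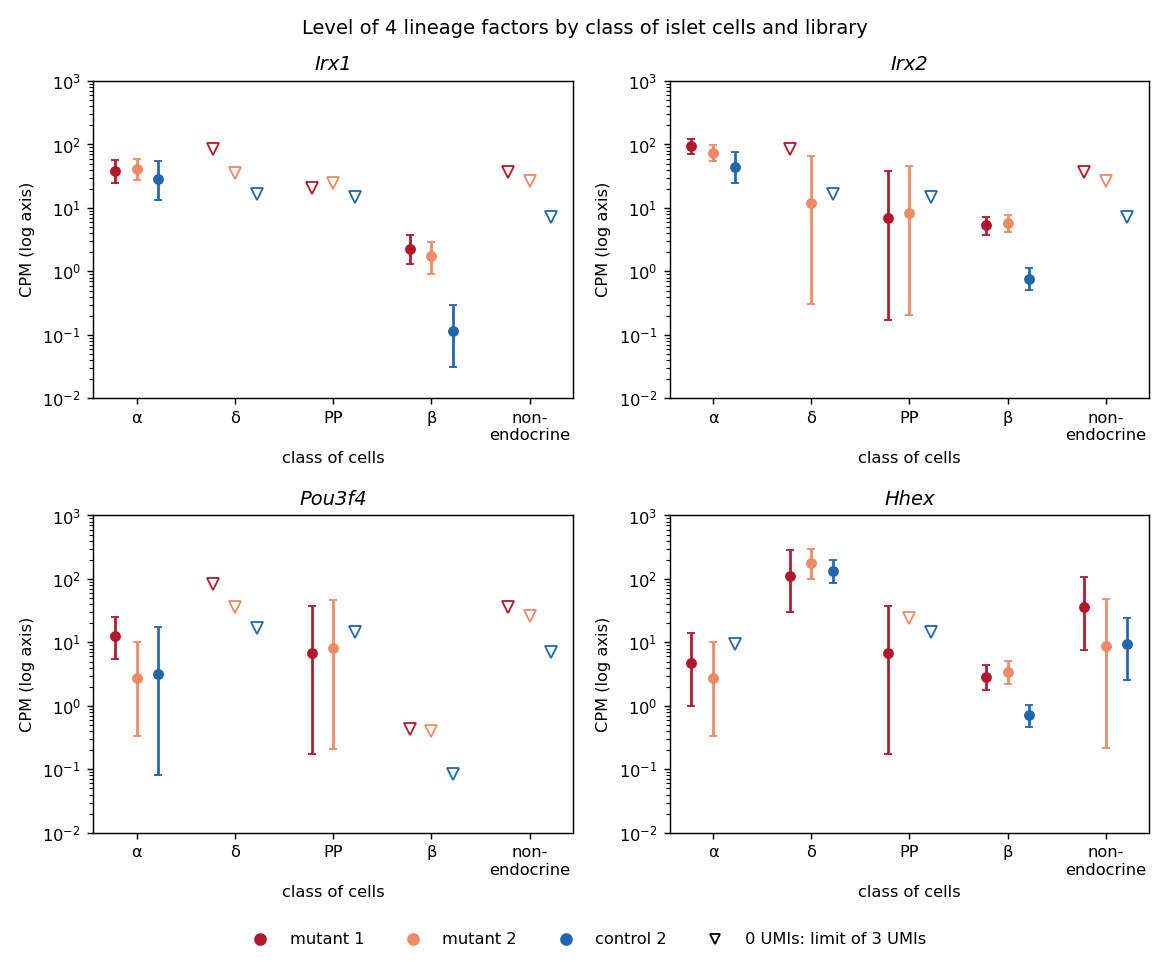
Level of each factor in CPM (log axis) by class of cells, with 1 point per library and exact 95% Poisson intervals for counting error. Open triangles stand at the CPM of 3 UMIs where none was counted. Among the points with UMIs, Irx1 and Irx2 are highest in α cells and Hhex in δ cells of every library. The Irx1 triangle for δ cells of mutant 1, at 84.4 CPM, stands above the α point at 38.1 CPM. Pou3f4 has 0 UMIs in all β cells.

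Cells outside the 4 classes held part of the UMIs. The unassigned cells, 326, 184 and 121, are the largest such set and held both kinds of factor, with 18, 13 and 9 UMIs of Hhex, 9, 3 and 4 of Irx2 and 1, 3 and 2 of Irx1. Their Hhex level was 39.1, 35.3 and 16.9 CPM and their Irx2 level 19.6, 8.14 and 7.50 CPM. Endothelial cells, 36, 30 and 36 by their markers, held 3, 1 and 4 Hhex UMIs, or 46.6, 12.4 and 12.6 CPM, and 0 UMIs of Irx1, Irx2 and Pou3f4. Leukocytes (14, 14 and 12) and stellate cells (2, 5 and 13) held 0 UMIs of all 4 factors. The 3-UMI limits were 227, 114 and 57.1 CPM in leukocytes and 782, 386 and 55.0 CPM in stellate cells. These limits lay above the α levels of Irx1, Irx2 and Pou3f4 in the same library, and some lay above the δ level of Hhex. Cells with both Gcg and Ppy above the limits numbered 16, 12 and 3, and held 5, 4 and 1 Irx2 UMIs and 0 of Hhex. Cells with both Sst and Ppy numbered 2, 2 and 13, and held 0, 2 and 12 Hhex UMIs and 0 of Irx2. Cells with both Gcg and Sst numbered 5, 2 and 0 and held 1 and 1 Irx2 UMIs and 0 of Hhex. Together, the cells with 2 hormones stood above α cells in Irx2 in mutant 2 (82.2 against 74.1 CPM) and above δ cells in Hhex in control 2 (139 against 133 CPM), both within counting error. Such cells may be doublets or cells with 2 hormones, which was not tested.

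Single α cells showed these factors at low counts. An Irx2 UMI was found in 50, 47 and 11 α cells, or 16.0%, 20.5% and 27.5%, and in 36, 41 and 26 β cells, or 1.68%, 2.75% and 1.30%. The median depth of the α cells was 1753, 2826 and 6684 UMIs. With each cell thinned to 1000 UMIs, which left out 46 and 10 α cells and 260 and 110 β cells of the mutant libraries, the shares were 7.52%, 4.57% and 2.5% of α cells and 0.742%, 0.289% and 0% of β cells. The last is 0 of 1995 cells, which allows up to 0.150%. No α cell had over 3 Irx2 UMIs or over 2 Irx1 UMIs. Both genes were found in 5, 8 and 4 α cells, where 3.69, 5.13 and 2.20 would share them if the 2 were independent. At least 1 of Irx1, Irx2 and Pou3f4 was found in 23.4%, 28.8% and 37.5% of α cells, so most α cells showed none at this depth.

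In the mutant libraries the level of Irx2 was higher in cells with more Gcg (the bins were set after the values had been seen). In cells with under 0.1% Gcg, it was 3.04 and 3.91 CPM, from 0.1% to 0.5% it was 5.24 and 5.22 CPM, and from 0.5% to 2% it was 15.5 and 9.87 CPM. From 2% to 5% it was 36.1 and 16.3 CPM, from 5% to 10% 80.9 and 65.6 CPM, from 10% to 20% 88.3 and 90.0 CPM and above that 106 and 62.7 CPM. From 5% upward the counting intervals overlapped between neighbouring bins in each mutant library. Control 2 showed no steady order, with 0.705, 0, 26.9, 157, 0, 36.3 and 91.2 CPM in the same bins, the 5 middle ones from 34, 7, 4, 8 and 19 cells.

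Hhex was higher in cells with more Sst in the mutant libraries. It was 2.51, 2.36 and 0.455 CPM in cells with under 0.1% Sst, and 52.6, 58.7 and 44.7 CPM between 1% and 2.5%, while control 2 had 0 UMIs in its 21 and 4 cells from 0.1% to 0.5% and from 0.5% to 1%. Just under the 5% limit, between 2.5% and 5%, lay 52, 41 and 2 cells, with Hhex at 110, 54.0 and 442 CPM. Just over it, between 5% and 10%, lay 23, 32 and 18 cells, with 101, 169 and 148 CPM, and the intervals of the 2 bins overlapped in each library. With a limit of 1% Sst and insulin under 20%, added after the values had been seen, there were 89, 73 and 30 δ cells with 115, 121 and 131 CPM of Hhex. The 3 libraries then lay closer together than under the 5% limit, and Irx1, Irx2 and Pou3f4 together had 1, 2 and 0 UMIs in these cells.

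**Figure D2:**
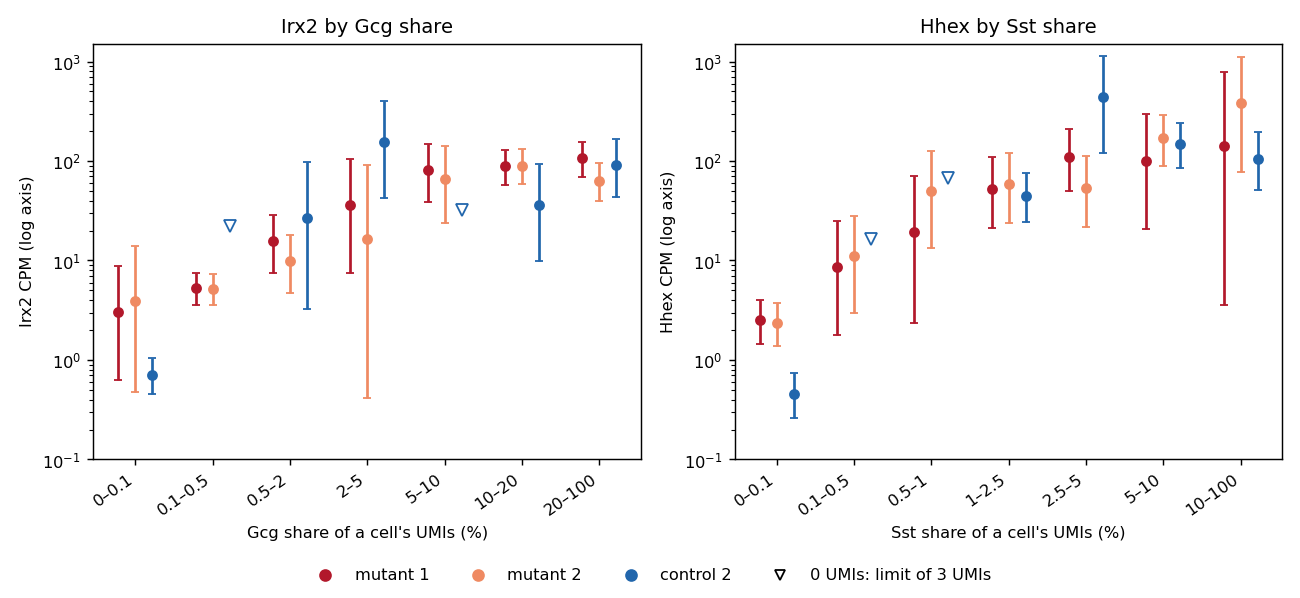
Irx2 in CPM by the Gcg share of a cell's UMIs (left) and Hhex by the Sst share (right), both on log axes, with 1 point per library and bin and exact 95% Poisson intervals. Open triangles stand at the CPM of 3 UMIs where none was counted. Irx2 goes from 3.04 CPM in the lowest bin of mutant 1 to 106 CPM in the highest, and the bins of control 2 between 0.1% and 5% hold few cells.

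Whether β cells showed the factors beyond free RNA was asked with the hormone as a tracer. Transcripts released by broken α cells can enter any droplet, and free RNA from α cells should bring its genes into β cells in the ratio to Gcg that α cells have. Gcg itself was found in 97.7%, 99.2% and 83.2% of β cells, at 2489, 3006 and 165 CPM. Sst stood at 485, 529 and 196 CPM. β cells of the mutant libraries thus carried more of both hormones per UMI than those of control 2.

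In β cells 37, 43 and 27 Irx2 UMIs were counted, where the Gcg UMIs gave an expectation of 9.20, 8.52 and 1.497. The observed count was 4.02, 5.05 and 18.0 times the expected one, with 95% intervals of 2.59 to 6.17, 3.29 to 7.69 and 9.13 to 37.2. Irx1, with 16, 13 and 4 UMIs, was at 4.27, 2.79 and 4.16 times its expectation, and the interval of control 2 reached below 1 (0.936 to 14.9). Pou3f4 had 0 UMIs where 1.25, 0.322 and 0.107 were expected, too few to tell. Hhex, traced by Sst in δ cells, had 20, 26 and 25 UMIs and stood at 4.11, 2.92 and 2.91 times its expectation, with intervals of 1.38 to 16.5, 1.49 to 5.93 and 1.60 to 5.33. The classes were themselves cut by these hormones, α and δ cells by a high share and β cells by a low one. Such cuts can lower the expectation, so a ratio above 1 depends in part on the limits. With the limit of 1% Sst for δ cells the Hhex ratios were 2.29, 3.02 and 2.92. By these hormone tracers the intervals of Irx2 and Hhex lay above 1 in all 3 libraries, and those of Irx1 in both mutant libraries.

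This excess was not particular to the factors. Of all genes with at least 10 UMIs in α cells, 99.7%, 99.8% and 100% lay above the Gcg expectation with their whole interval. For genes with at least 4 UMIs in δ cells the shares above the Sst expectation were 99.5%, 99.5% and 99.9%, and no gene of either set lay below with its whole interval. The factors stood near the low end. Only 50 of 6920, 91 of 7609 and 22 of 4486 genes had a lower ratio than Irx2. For Hhex these were 32 of 2090, 24 of 4447 and 10 of 6728 genes. Within a library this order is the same as that of the β level over the α or δ level. A place near the low end thus restates the class differences given above.

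Markers measured in the same way covered a wide range. Of the α markers, Slc38a5 was at 2.77, 1.07 and 39.2 times its expectation, Ttr at 5.23, 4.26 and 198, Slc7a2 at 17.0, 12.8 and 137 and Gc at 23.6, 22.1 and 1333. The Irx2 interval lay above that of Slc38a5 in mutant 2, overlapped it in mutant 1 and control 2, and lay below those of Slc7a2 and Gc in every library. Of the δ markers, Rbp4 was at 1.23, 1.91 and 1.79 times its expectation, Spock3 at 3.84, 3.37 and 6.64 and Casr at 69.5, 44.4 and 315. The Hhex intervals overlapped those of Rbp4 and Spock3 in each library and lay below those of Casr.

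**Figure D3:**
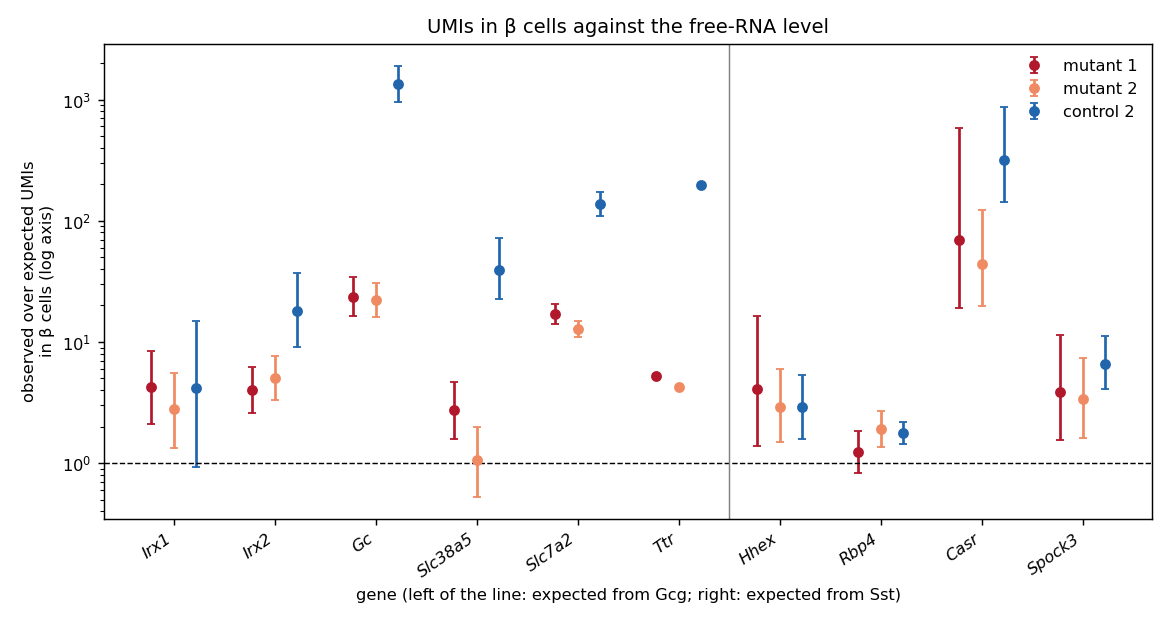
Observed over expected UMIs in β cells (log axis) for the factors and for α and δ markers, with 1 point per library and exact 95% intervals for counting error. The dashed line at 1 is the free-RNA level, and Pou3f4 and the δ marker Ghsr are left out for lack of UMIs. The Irx2 points stand at 4.02, 5.05 and 18.0, and those of Hhex at 4.11, 2.92 and 2.91.

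The β cells that held a factor held it at 1 UMI with few exceptions. Of the 36, 41 and 26 β cells with Irx2, 1, 2 and 1 had over 1 UMI, and the highest count was 2. Their median Gcg share was 0.275%, 0.307% and 0.0184%, against 0.236%, 0.284% and 0.0119% in the β cells without Irx2. They were also deeper, with medians of 3334, 5243 and 23194 UMIs against 2863, 4589 and 16227. The 19, 25 and 19 β cells with Hhex included 1 cell of control 2 with 4 UMIs, and their median Sst share was 0.0424%, 0.0382% and 0.0159% against 0%, 0.0239% and 0.00488% in the others.

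Some factor UMIs lay in β cells in which the tracer was not seen at all. The 336 β cells of control 2 with 0 Gcg UMIs held 1 Irx2 UMI, and the 809 with at most 1 Gcg UMI held 8. No expectation is given for these cells, since they were chosen by the tracer itself. In the mutant libraries only 49 and 12 β cells had no Gcg UMI, and they held 1 and 0 Irx2 UMIs. β cells with 0 Sst UMIs, 1173, 471 and 737 of them, held 6, 2 and 5 Hhex UMIs. With β cells limited to under 0.5% of each other hormone, the Irx2 ratios were 3.89, 5.79 and 20.7 and those of Hhex 6.30, 4.53 and 3.58. In control 2 that limit took the Hhex count in β cells from 25 to 12 UMIs and the Irx2 count from 27 to 25. Reads from Gm20554, a non-coding gene on the opposite strand whose RefSeq model overlaps Irx2, could be counted with it if strand was not used, which the sources do not state. Gm20554 itself had 8, 3 and 2 UMIs in α cells and 4, 7 and 3 in β cells.

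The levels of the factors in mutant and control libraries were set side by side without a test. In α cells the log2 ratios of Irx2, each mutant library over control 2, were 1.07 and 0.73, with counting intervals of 0.21 to 2.02 and -0.14 to 1.69. Both ratios passed 0.5, as did those of 19.1% of the 6095 α-cell genes that averaged 20 CPM or more, while 15% passed -0.5. For Irx1 the ratios were 0.41 and 0.49, and both intervals held 0. With a Gcg share of at least 10% the Irx2 ratios were 0.61 and 0.25. Hhex in δ cells had ratios of -0.24 and 0.44, of opposite sign, and both intervals held 0. Among 6995 δ-cell genes over the same level, 34% passed 0.5 and 4.82% passed -0.5 in both mutant libraries. No factor reached 20 CPM in PP cells, where 38.3% of 5949 genes passed 0.5 and 4.94% passed -0.5.

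In β cells all 3 detected factors were higher per UMI in both mutant libraries than in control 2. The log2 ratios were 2.79 and 2.89 for Irx2, 4.33 and 3.92 for Irx1 and 2.01 and 2.28 for Hhex. Scaled by TMM within β cells they were smaller, at 2.20 and 2.29, 3.75 and 3.32, and 1.42 and 1.68. None of them reached 20 CPM in β cells. Of the 4699 genes that did, 41.9% passed 0.5 and 12% passed -0.5 in both mutant libraries, with median ratios of 0.42 and 0.41 over these 4699. The hormones moved with the factors, as Gcg stood at 2489, 3006 and 165 CPM in β cells. The part of free RNA, depth and genotype in this difference cannot be told apart with 1 control library.

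Other lineage genes gave the setting of these results. Of a list of 19 related factors, 11 passed the filter. Against β cells, 1 of the 11 was higher in α cells (Etv1 by 2.42 ± 0.20, log2 ± SE) and 6 were lower, while 4 did not pass. The median of the 11 was -0.58, against -0.01 for all genes tested. The lower ones were the β-cell factors Mafa (-2.88 ± 0.22), Nkx6-1 (-2.83 ± 0.20) and Pdx1 (-2.68 ± 0.22), and the pan-endocrine factors Insm1, Neurod1 and Pax6. Over all genes 18.6% were called higher and 18.7% lower.

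In δ cells 3 of the 11 were higher than in β cells, namely Etv1 (1.69 ± 0.25), Isl1 (0.83 ± 0.25), a pan-endocrine LIM-homeobox factor, and Rfx6 (0.66 ± 0.22), and 5 were lower, with 8.81% of all genes called higher and 10.5% lower. The δ cells kept more Pdx1 (log2 fold change to β cells -0.79 ± 0.25) and less Mafa (-4.04 ± 0.30) and Nkx6-1 (-3.97 ± 0.29). Pdx1 was lower in α than in δ cells in the same fit, whereas Nkx6-1 and Mafa were higher in α cells. In PP cells 1 of the 11, Etv1 (2.37 ± 0.22), was higher than in β cells, where 10.6% of all genes were called higher, and 6 were lower, where 11.7% were.

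**Figure D4:**
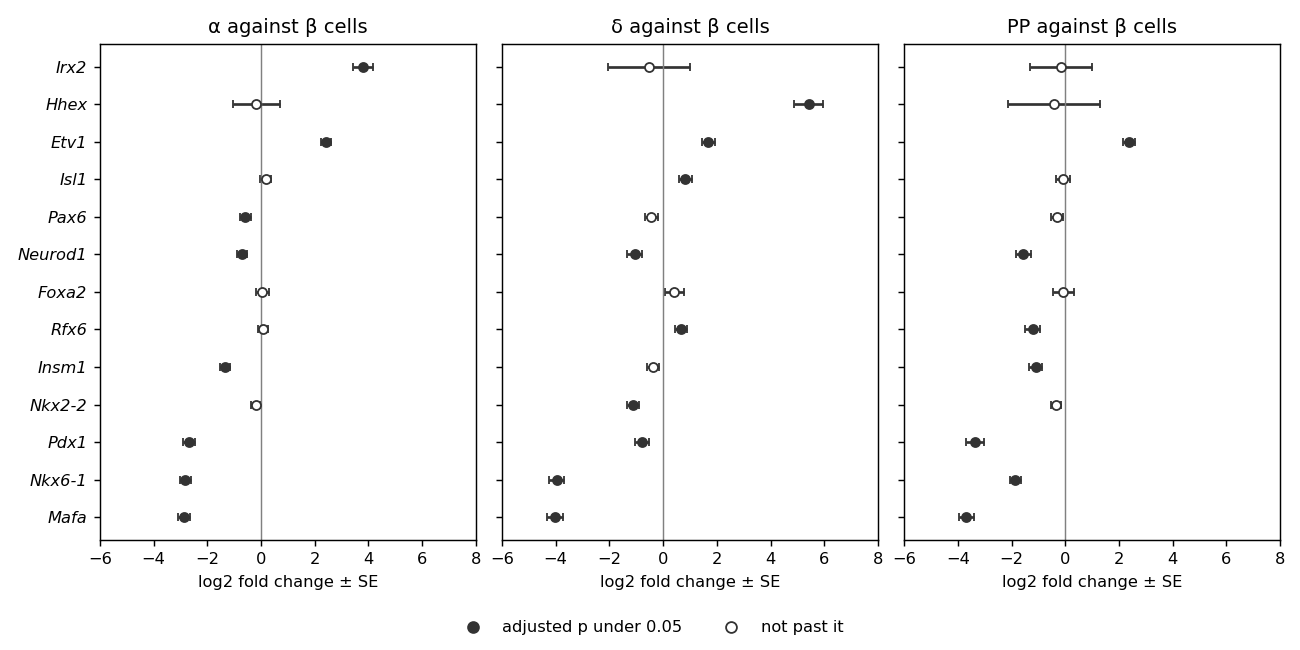
Log2 fold change against β cells, with its SE, for Irx2, Hhex and the 11 other lineage factors that passed the filter on low counts, from 1 edgeR fit over 3 libraries. Filled points passed an adjusted p of 0.05. Irx2 stands at 3.80 in α cells only and Hhex at 5.42 in δ cells only, while Mafa, Nkx6-1 and Pdx1 lie below 0 in all 3 panels.

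The closest relatives of the factors were nearly silent. Irx3 and Irx4 had 0 UMIs in the α, β, δ and PP cells of all libraries, Irx5 had 1 UMI in α cells of mutant 2 and 3 in β cells of control 2, and Irx6 had 1 UMI in β cells of mutant 1. Of the POU class III genes, Pou3f3 had 0 UMIs, Pou3f2 had 1 and Pou3f1 had 3 and 1 in β cells of mutant 2 and control 2. Pax4, a β- and δ-lineage factor of the embryo, had 1 UMI in all.

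The genes whose level was most like that of each factor were ranked by Pearson's r of log2(CPM + 1) over the 12 sums of library and class, among 6175 genes, as a description over sums that share libraries. For Irx1 they included Ttr (r = 0.89) and Pcp4l1 (0.89). For Irx2 they were Map3k15 (0.88), Lrrc1 (0.88) and Lmna (0.87). Map3k15 was higher in α than in β cells (log2 1.71 ± 0.17, edgeR adjusted p = 7.11e-09). Genes ranked here were picked over the same sums that the fit tests. Their calls are tied to that choice and give no independent support. For Hhex they were Akt1 (0.96), Cdh4 (0.96) and Napg (0.95), of which Cdh4, a cadherin, was higher in δ than in β cells (log2 1.59 ± 0.34, edgeR adjusted p = 0.000975) and Akt1 and Napg were not called (edgeR adjusted p = 0.317 and 0.520). For Pou3f4 they were Ext1 (0.94), Vps8 (0.89) and Cfap20 (0.89), a ranking that rests on 13 Pou3f4 UMIs.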

How the data were processed

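The deposited matrices hold UMI counts, raw and whole, for each gene in each cell. The paper's methods name DropEst for the counts, together with inDrop-Seq, the platform on which the sources disagree. The submitters' processing notes name Seurat and GRCm39, and aligner and annotation are not given in the sources used here. Cells were classed by hormone shares, and counts were summed per library and class (12 sums of 35542 to 35163350 UMIs, at least 10 cells each). The sums were tested with edgeR 4.0.16 (TMM, filterByExpr, quasi-likelihood, Benjamini-Hochberg) in R 4.3.3. The library was a block, because the classes of a library come from the same islets. Each library pools mice, and the block takes out differences between whole libraries. The p-values thus set class differences against their variation among the 3 libraries, of both genotypes together. There were 6 residual degrees of freedom over all classes. edgeR pulls the variation of each gene towards a value shared across genes, so no p-value rests on that gene's own libraries alone. The SE of an edgeR fold change was derived from its test, as the size of the log2 fold change over the square root of the F statistic. Levels are CPM of all UMIs. Intervals are exact 95% Poisson or binomial intervals, cover counting error only, and the limit for 0 is 3 UMIs. Doublets were not called; cells with 2 hormones were set apart. On simulated data with 200 changed genes, drawn for 4925 genes of which 3037 passed the filter, for α against β cells, 94 of 100 changes of 1 and 100 of 100 changes of 2 (log2) were recovered, with 8 of the 2837 unchanged genes tested called. The changed genes were drawn from genes of higher level than the factors. All genes had the same spread, and libraries and classes differed only in depth and in the changes. These rates thus do not carry over to the factors. Alternatives covered normalization (DESeq2 1.42.0 size factors), a DESeq2 test, filters, class limits and left-out libraries. The factors, the lists and the tests were chosen with earlier results of these data known. Genes named are the 4 factors, the 3 most alike to each, the lineage list, markers and Gm20554, the last added because it overlaps Irx2. Some genes that this rule would name are not reported here, and the lineage list is counted without them. Python 3.11.15, numpy 2.4.6 and scipy 1.17.1 were used.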

Additional observations from a re-analysis of the deposited data

How the results depend on the processing

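For the called differences of Irx2 and Hhex, the direction held under every alternative that gave a value, and 4 calls were lost. Irx2 between α and PP cells was lost without the replicate block (3.97, adjusted p = 0.136 by edgeR) and without either mutant library (4.15 and 4.53, adjusted p = 0.10 and 0.0684), and between α and δ cells with a hormone share of at least 10% (9.64, adjusted p = 0.385), where the δ cells came from control 2 alone. With cells thinned to 1000 UMIs no factor passed the filter. Irx1 passed it at a share of 10% and without control 2, both only through its α level. It was then called against β cells in both and against δ and PP cells only without control 2 (adjusted p = 0.0421 and 0.00720 by edgeR). These calls are thus not independent of a high α level.

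Without the replicate block the genes called numbered 574 (1836 with it) for α against β, 456 (950) for δ against β, 417 (1100) for PP against β, 262 (561) for α against δ, 32 (135) for α against PP and 136 (366) for PP against δ cells. Thinned cells gave 409, 202, 220, 131, 42 and 82 genes in that order, with 676 tested. At a hormone share of 10%, 368 genes were called for δ against β, 221 for α against δ and 143 for PP against δ cells, and without the filter 1442 for δ against β. Leaving out 1 library gave 924 to 2852, 550 to 868, 521 to 1338, 256 to 514, 37 to 260 and 165 to 287 genes. No paired analysis was possible because the only control matrix shares 1 replicate number with the mutant libraries; the mean log2 ratios to control 2 then ranged, with either mutant library left out, from 0.41 to 0.49 for Irx1, from 0.73 to 1.07 for Irx2 in α and from -0.24 to 0.44 for Hhex in δ cells. The Hhex ratio of mutant 2 in δ cells was 1.70 at a share of 10%, from 3 UMIs against 10 in control 2, and its counting interval of -0.80 to 3.65 held 0.

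The excess over the free-RNA level lost its interval above 1 at 1000 UMIs per cell for Irx1 (2.86) and Irx2 (3.12) in mutant 2, for Irx2 in control 2 (0, with 0 UMIs counted) and for Hhex in mutant 2 (3.66) and control 2 (0). It did so for Hhex at a share of 10% in mutant 1 (5.81) and mutant 2 (2.95). Against non-endocrine cells, whose Hhex UMIs all lay in endothelial cells, β cells held 0.0785, 0.395 and 0.0754 times the Hhex level. The intervals were 0.0233 to 0.413, 0.065 to 16.2 and 0.026 to 0.298. They lay below 1 in mutant 1 and control 2 and held 1 in mutant 2. Since endothelial cells supplied every Hhex UMI, this second estimate cannot stand for a free-RNA level, and no conclusion on the excess is drawn from it. The other factors had 0 UMIs in non-endocrine cells, so no ratio was had. Depth limits Pou3f4 and every value in δ and PP cells.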
